A study of Homo sapiens with 5 samples.

Results

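The genes described here carry an MRPL or MRPS symbol, the names given to protein subunits of the mitochondrial ribosome. They were chosen by symbol and level: a row was a member when its symbol was MRPL or MRPS followed by a number, with at most 1 further letter from A to C, and its mean over the 5 libraries was at least 1 FPKM (fragments per kilobase of transcript, scaled to each library's mapped fragments). Of 27933 rows in the deposited table, 78 had such a symbol and 76 of these reached the level, 49 named MRPL and 27 named MRPS. The libraries hold total RNA of HaCaT cells, an established line of human keratinocytes that multiplies without limit and can still differentiate. Knockdown of AHNAK was labelled in 3 libraries and control in 2, and both groups share the parental line and culture medium. AHNAK encodes a very large scaffold protein found beneath the plasma membrane. The sample labels speak of a knockdown and the series' design text of a knockout. The labels mark the knockdown libraries si and the controls NC without spelling these out, and do not say which sequence was used or whether replicates were separate cultures, so the p-values below weigh differences against a spread among samples that may be technical.

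Mitochondria keep their own ribosomes, which translate the few messenger RNAs of the mitochondrial genome, all of them for subunits of the respiratory chain and ATP synthase. The ribosomal RNAs of these particles come from mitochondrial DNA, while all of their proteins are encoded in the nucleus, made in the cytosol and imported. Part of the proteins descend from bacterial ribosomal proteins and part are additions found in mitochondria.

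AHNAK itself had 113.9, 69.6 and 115.3 FPKM in the 3 knockdown libraries and 204.8 and 242.0 FPKM in the 2 control libraries. Every knockdown library lay below both controls, with a log2 difference of -1.19 (SE 0.24), but the difference did not pass the adjusted threshold (limma with Benjamini-Hochberg adjustment over 12196 genes, adjusted p = 0.372). All log2 differences here subtract the control mean of log2(FPKM + 0.5) from the knockdown mean, a scale that understates changes of low genes. The 8 keratinocyte markers were all at 1 FPKM or more, with a summed level of 3954 to 5526 FPKM in knockdown and 5826 to 7293 FPKM in control libraries. Of 6 fibroblast markers 3 reached 1 FPKM, with a summed level of 6.11 to 10.24 FPKM in knockdown and 3.301 to 4.998 FPKM in control libraries. Of 4 leukocyte markers 1 reached 1 FPKM, with sums of 20.41 to 27.73 FPKM in knockdown and 15.6 to 17.61 FPKM in control libraries. Of 4 melanocyte markers 1 reached 1 FPKM, with sums of 1.39 to 2.05 FPKM in knockdown and 1.917 to 2.066 FPKM in control libraries, and TYR was listed at 0 in all of them. The part of these marker levels in the results below was not tested. In such bulk libraries, fewer cells of a type and less RNA per cell cannot be told apart.

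The promoters of 3 members are shown first, since these members mark the ends of the data: MRPS25 had the largest positive difference, MRPS26 the most negative one and MRPL51 the highest level. Each window runs from 250 bases before to 50 bases after the RefSeq start site (build GRCh38.p14), 5′ to 3′ on the gene's strand. Capitals mark CCGGAAG, the core of sites bound by ETS family factors such as GABP (named NRF2 in the mitochondrial literature), read on either strand.
MRPS25 (chr3:15065266-15065565, minus strand): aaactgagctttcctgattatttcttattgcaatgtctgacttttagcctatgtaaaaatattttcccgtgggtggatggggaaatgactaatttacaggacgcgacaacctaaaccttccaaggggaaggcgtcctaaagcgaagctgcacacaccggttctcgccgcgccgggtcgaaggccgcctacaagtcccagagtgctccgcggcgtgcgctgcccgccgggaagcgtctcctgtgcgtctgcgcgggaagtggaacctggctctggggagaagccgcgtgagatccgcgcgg
MRPS26 (chr20:3045802-3046101, plus strand): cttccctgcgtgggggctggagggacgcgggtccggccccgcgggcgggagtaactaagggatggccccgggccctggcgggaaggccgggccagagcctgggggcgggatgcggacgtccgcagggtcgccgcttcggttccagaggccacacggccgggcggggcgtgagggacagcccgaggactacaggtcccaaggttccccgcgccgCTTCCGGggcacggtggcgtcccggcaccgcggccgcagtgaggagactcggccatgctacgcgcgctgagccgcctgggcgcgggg
MRPL51 (chr12:6493213-6493512, minus strand): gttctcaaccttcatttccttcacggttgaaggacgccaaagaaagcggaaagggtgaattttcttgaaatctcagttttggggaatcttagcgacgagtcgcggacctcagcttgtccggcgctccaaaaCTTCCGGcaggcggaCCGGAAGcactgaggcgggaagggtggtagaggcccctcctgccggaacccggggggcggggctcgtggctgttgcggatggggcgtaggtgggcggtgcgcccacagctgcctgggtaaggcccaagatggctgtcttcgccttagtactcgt
The window of MRPL51 held 2 copies and that of MRPS26 held 1 copy, while the letters did not occur in the window of MRPS25. A match is a description of the letters and not a site shown to be bound.

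Promoter windows of this kind were found for 67 of the 76 members. CCGGAAG, on either strand, occurred in 29 of them (43.3%), against 20.4% of the 9060 tested genes with a window and 10.7% of all 27305 windows. The longer form ACTTCCGG, whose reverse complement contains CCGGAAG, occurred in 11 members (16.4%), against 9.51% of tested genes and 4.44% of all windows. In 5 of the members whose levels are described below, the letters and their surroundings read as follows, with the longer form in capitals on whichever strand it lay.
MRPL51 (chr12:6493365-6493392, minus strand): gcgctccaaaACTTCCGGcaggcggacc
MRPS34 (chr16:1773137-1773164, minus strand): tcttccggtgACTTCCGGccggaccgct
MRPL3 (chr3:131502986-131503013, minus strand): gtaaaacgcaCCGGAAGTgggtccggcg
MRPS22 (chr3:139343904-139343931, plus strand): ggcccggaagACTTCCGGccctttccgc
MRPL47 (chr3:179604660-179604687, minus strand): gcttgagacgCCGGAAGTgacgctatcg
MRPL3 and MRPL47 carry it in the reverse orientation and the other 3 in the forward one. The match began at -20 in MRPS34, -32 in MRPL3, -39 in MRPL47, -80 in MRPS22 and -120 in MRPL51, counted in bases from the start site.

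Another run of letters searched for was AAGATGGCG, the core of sites of YY1, a zinc finger factor of many housekeeping promoters. It occurred on either strand in 11 of the 67 members (16.4%), against 4.34% of tested genes and 1.85% of all windows. The same letters followed by GC occurred in 8 (11.9%), against 2.23% and 0.916%. All 8 of these longer matches lay within 50 bases of the start site. The following 6 examples, with the longer form in capitals, are those of highest mean level among the 8.
MRPL36 (chr5:1799855-1799885, minus strand): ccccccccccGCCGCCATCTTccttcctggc
MRPL38 (chr17:75904858-75904888, minus strand): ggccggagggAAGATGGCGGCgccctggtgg
MRPS18A (chr6:43687762-43687792, minus strand): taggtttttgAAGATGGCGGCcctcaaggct
MRPL50 (chr9:101398575-101398605, minus strand): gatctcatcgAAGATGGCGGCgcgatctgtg
MRPS30 (chr5:44808950-44808980, plus strand): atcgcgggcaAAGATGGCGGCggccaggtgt
MRPL46 (chr15:88467360-88467390, minus strand): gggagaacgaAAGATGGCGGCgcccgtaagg
In MRPL36 the match lies on the opposite strand, and in the other 5 it begins 6 to 23 bases after the start site. MRPL38, MRPS18A, MRPL52 and MRPS10 held both the ETS and the YY1 letters, and 30 of the 67 held none of the ETS, YY1 or NRF1 letters. The NRF1 palindrome (GCGCA followed by its reverse complement, TGCGC), bound by a regulator of nuclear genes for mitochondrial proteins, occurred in 1 member, MRPL17 (1.49%), against 2.33% of tested genes and 1.36% of all windows. The GC box GGGCGG, searched on both strands, was in 41 members (61.2%), against 70.7% of tested genes and 44.6% of all windows, and TATAAA was in 2 (2.99%), against 5.35% and 12%. The members' windows had a median GC content of 60.3%, against 65.3% for those of tested genes. The median log2 difference was 0.07 for the 29 members with CCGGAAG and 0.02 for the 38 without it, and -0.01 for the 11 with AAGATGGCG and 0.04 for the 56 without it. The transcripts of the factors themselves are given with the related gene groups.

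The members were expressed at high and unequal levels. Their means over the 5 libraries ran from 8.77 FPKM for MRPL19 to 160.5 FPKM for MRPL51, an 18.3-fold range on a scale already divided by transcript length. The median member stood at 42.1 FPKM (quartiles 25.9 and 57.7), above 84.6% of the tested genes. Of the 76 members, 7 averaged at least 100 FPKM and 13 fell under 20 FPKM. Their summed FPKM was 0.908%, 0.864% and 0.972% of each library's total in knockdown replicates 1, 2 and 3, and 0.901% and 0.919% in the controls, so the knockdown range encloses the control range. Summed levels of small-subunit members were 0.385, 0.372 and 0.38 of the large-subunit sum in knockdown libraries, against 0.382 and 0.386 in controls.

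**Figure D1:**
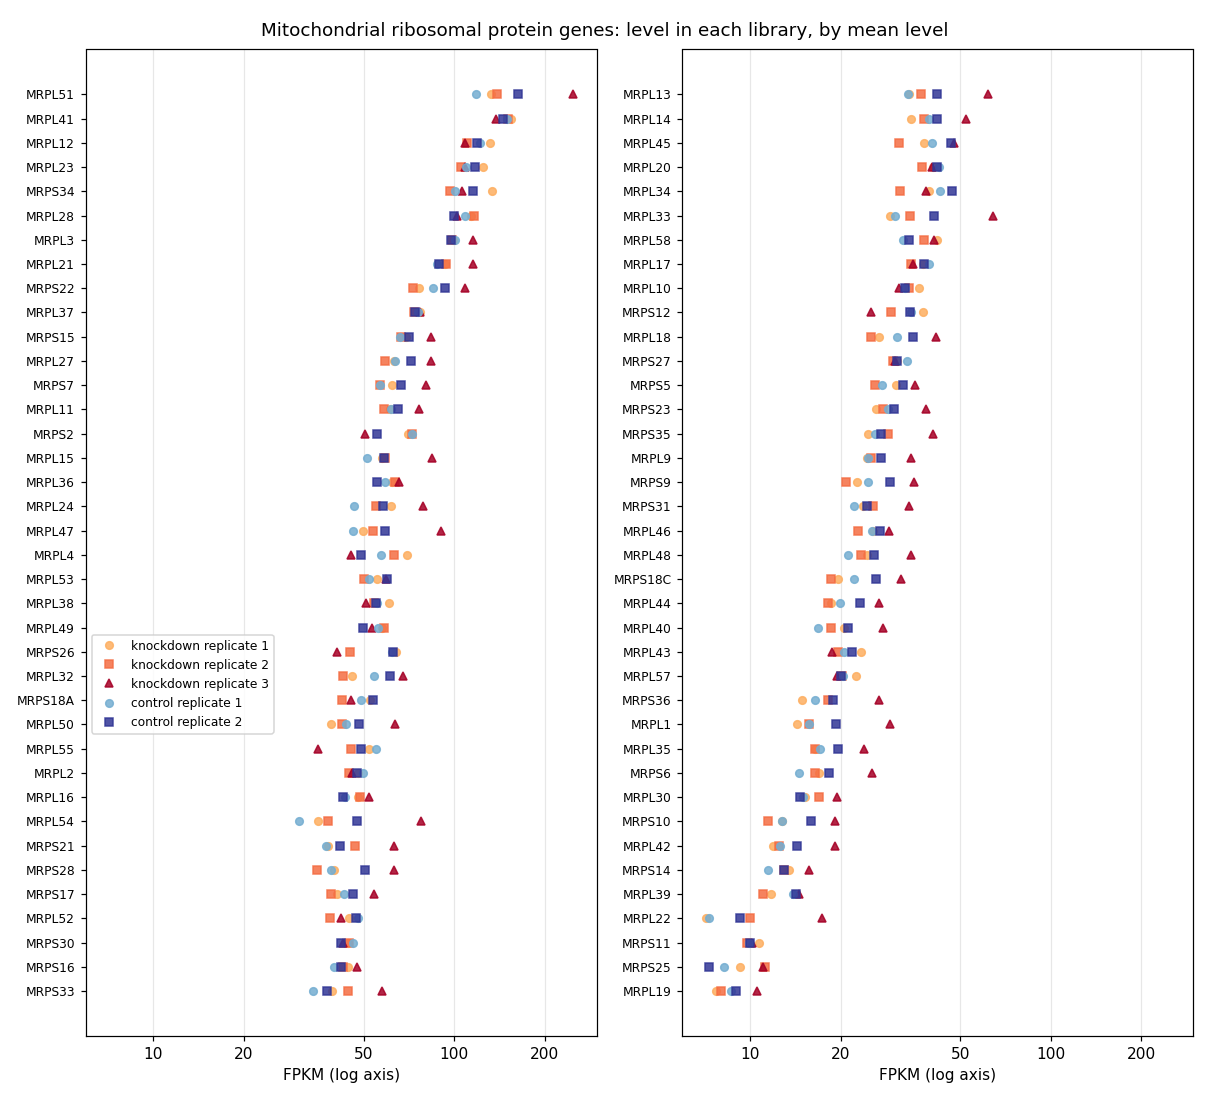
FPKM of each of the 76 members in every library (log axis), ordered by mean level in 2 panels; colours and shapes mark the 3 knockdown and 2 control libraries. The order runs from MRPL51 at a mean of 160.5 FPKM to MRPL19 at 8.77 FPKM, and knockdown replicate 3 lies to the right of the other libraries in 49 members.

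Among the large-subunit proteins with a bacterial homolog, MRPL12 forms the flexible stalk that recruits translation factors, and MRPL10 anchors that stalk. MRPL12 had 131.7, 110.3 and 108.4 FPKM in knockdown libraries and 121.8 and 118.9 FPKM in control libraries, and MRPL10 had 36.3, 33.8 and 31.3 FPKM against 32.7 and 32.6 FPKM. The groups overlapped for both, with log2 differences of -0.05 (SE 0.14) and 0.04 (SE 0.13). MRPL3, a protein near the site of peptide bond formation, had 99.3, 98.3 and 115.2 FPKM in knockdown and 100.9 and 97.7 FPKM in control libraries, an overlap with a log2 difference of 0.07 (SE 0.13). MRPL23 lies at the exit of the tunnel through which new peptides leave. It had 125.0, 105.3 and 108.5 FPKM in knockdown and 109.8 and 117.3 FPKM in control libraries, with the groups overlapping. MRPL28 and MRPL21, both counterparts of bacterial large-subunit proteins, averaged 108.2 and 95.97 FPKM, with log2 differences of 0.09 (SE 0.13) and 0.18 (SE 0.15). MRPL21 did not overlap, with 93.1, 94.4 and 115.6 FPKM in knockdown and 87.5 and 89.3 FPKM in control libraries. MRPL19, the lowest member, had 7.70, 7.98 and 10.6 FPKM in knockdown and 8.65 and 8.96 FPKM in control libraries, so the controls lay inside the knockdown range.

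The large-subunit proteins found in mitochondria but not in bacteria include the 2 most abundant members. MRPL51 had 132.4, 138.8 and 249.5 FPKM in knockdown and 118.6 and 163.2 FPKM in control libraries. The single value of knockdown replicate 3 stands above the other 4, which overlap. MRPL41 was even across the libraries, with 154.3, 150.8 and 137.8 FPKM in knockdown and 149.7 and 146.0 FPKM in controls. MRPL45, which fixes the ribosome to the inner membrane, had 37.9, 31.1 and 47.6 FPKM in knockdown and 40.3 and 46.6 FPKM in control libraries, and MRPL44, a protein with the fold of RNase III enzymes, had 18.6, 18.2 and 26.9 FPKM against 19.9 and 23.2 FPKM. Both overlapped between groups, with log2 differences of -0.18 (SE 0.20) and -0.04 (SE 0.20). MRPL58 is a peptidyl-tRNA hydrolase built into the large subunit and is known for freeing stalled ribosomes. It had 41.9, 37.9 and 40.9 FPKM in knockdown libraries and 32.2 and 33.7 FPKM in control libraries. Every knockdown value lay above both controls, with means of 40.25 ± 2.07 FPKM (SD, n = 3) and 32.95 ± 1.09 FPKM (SD, n = 2) and a log2 difference of 0.28 (SE 0.12; limma adjusted p = 0.439).

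In the small subunit, MRPS12 helps to form the decoding centre, where codon and anticodon meet. It had 37.5, 29.4 and 25.3 FPKM in knockdown and 34.4 and 34.0 FPKM in control libraries, an overlap with a log2 difference of -0.17 (SE 0.18). MRPS34 and MRPS22 are additions of mitochondria that are mutated in inherited deficiencies of oxidative phosphorylation. MRPS34 had 134.2, 96.8 and 106.0 FPKM in knockdown and 101.1 and 115.5 FPKM in control libraries, and MRPS22 had 76.6, 73.0 and 108.6 FPKM against 84.8 and 93.5 FPKM. Neither separated the groups, with log2 differences of 0.04 (SE 0.17) and -0.07 (SE 0.20). MRPS11, a counterpart of a bacterial small-subunit protein, was among the 4 lowest members and nearly constant, at 10.7, 9.79 and 10.1 FPKM in knockdown and 9.87 and 10.0 FPKM in control libraries. Its neighbour MRPL46, named here for its position and not by level, starts 34 bases away in the opposite direction and averaged 25.9 FPKM, so levels of a small-subunit and a large-subunit gene sharing a start region differed.

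Between knockdown and control libraries, none of the 76 members passed the threshold. The smallest adjusted p among them was 0.394 (limma, Benjamini-Hochberg over all tested genes), and 0% of the 12196 tested genes passed, with 0.0570 as the smallest adjusted p in the table. At an unadjusted p under 0.05 limma gave 1 of 76 members (1.32%), against 11.7% of all tested genes, or 1427 genes. It was 1 in the higher direction, against 6.22% of tested genes, and 0 in the lower direction, against 5.48%. With libraries weighted by their fit in limma, 2 members passed the adjusted threshold, MRPS25 (adjusted p = 0.0404) and MRPL34 (adjusted p = 0.0485), among 1428 genes, or 11.7% of those tested. The weights were 0.53, 3.98 and 0.26 for knockdown replicates 1, 2 and 3 and 1.36 for each control, so knockdown replicate 2 carried most of the knockdown side. On data simulated for this comparison, the unweighted test called 2.4% of genes changed by 0.5 on the log2 scale, 46.4% of those changed by 1 and 88.4% of those changed by 2, so smaller changes were mostly not detectable with these libraries.

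The differences of the members were small. Their median log2 difference was 0.04, against 0.01 for all tested genes, with quartiles of -0.04 and 0.19 and a range of -0.34 for MRPS26 to 0.41 for MRPS25. Above 0 were 47 of 76 members (61.8%), against 51.3% of all tested genes. The 95% interval lay within 1 log2 unit either way for 74 members (97.4%), against 90.1% of tested genes, and the exceptions were MRPL54 and MRPL22, whose upper bounds were 1.18 and 1.17. The knockdown and control values did not overlap in 13 members (17.1%), against 32% of all tested genes. In 9 of them all knockdown libraries were higher (11.8%, against 16.2% of tested genes) and in 4 lower (5.26%, against 15.8%). The 9 were MRPS25, MRPL58, MRPL30, MRPL16, MRPS14, MRPL21, MRPL36, MRPS16 and MRPS33, and the 4 were MRPL34, MRPL52, MRPL17 and MRPL20.

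**Figure D2:**
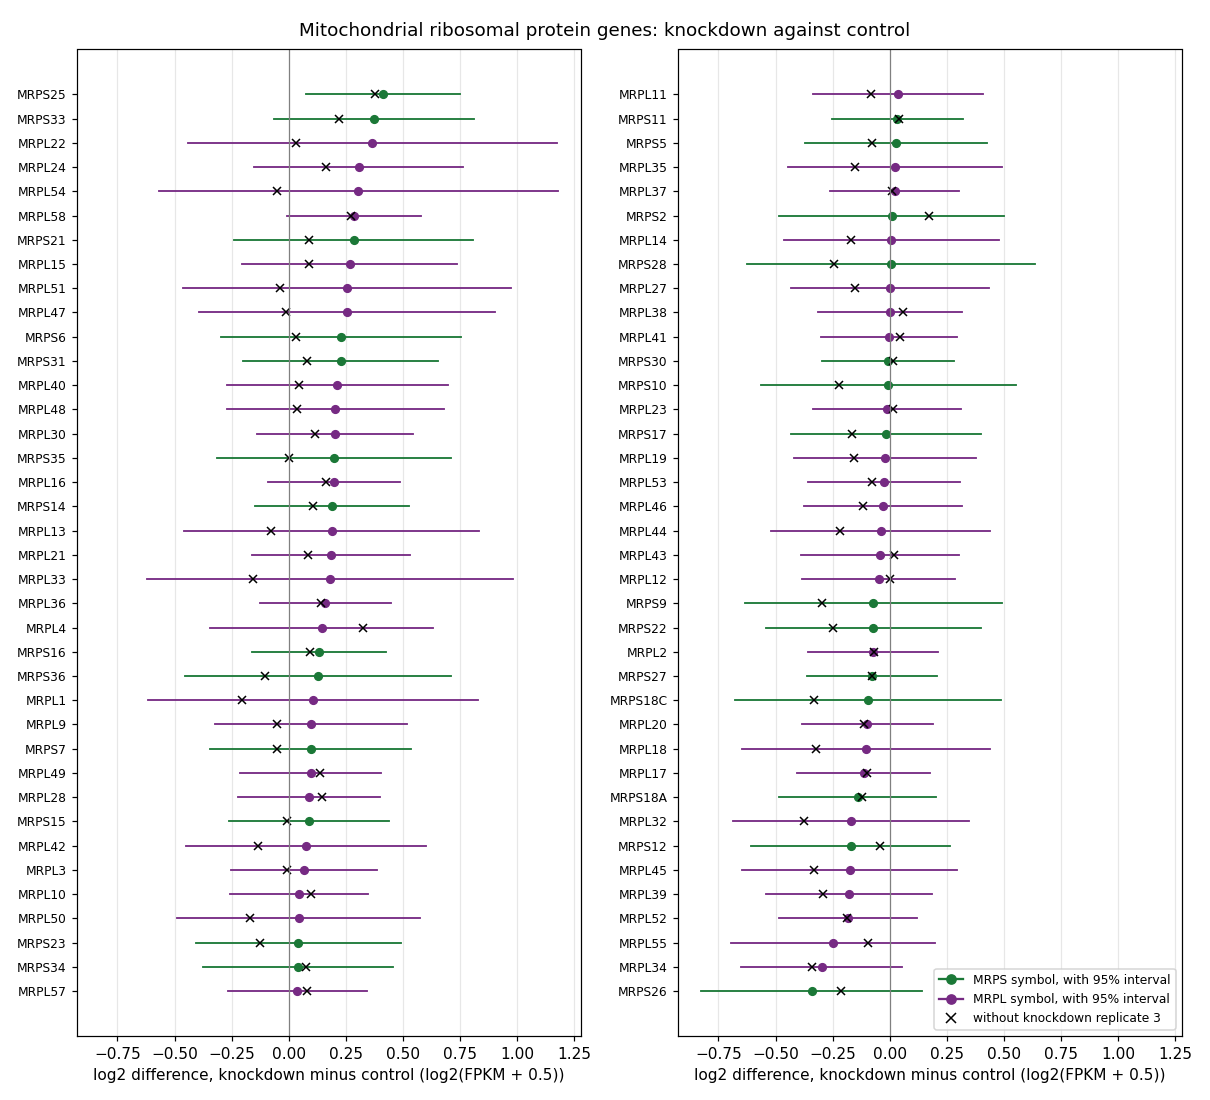
Log2 difference of each of the 76 members (knockdown minus control), with the 95% interval from limma; colours mark MRPS and MRPL symbols, and crosses the value without knockdown replicate 3. The points lie between -0.34 and 0.41, and 1 interval, that of MRPS25, excludes 0.

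The largest positive difference belonged to MRPS25, a small-subunit protein without a bacterial homolog, on the minus strand of chromosome 3 (chr3:15042460-15065335, GRCh38). It had 9.28, 11.2 and 11.02 FPKM in knockdown libraries and 8.16 and 7.32 FPKM in control libraries. All knockdown values lay above both controls, with means of 10.5 ± 1.05 FPKM (SD, n = 3) and 7.74 ± 0.596 FPKM (SD, n = 2). The log2 difference was 0.41 (SE 0.14; limma unadjusted p = 0.0235, adjusted p = 0.394), and it was 0.38 without knockdown replicate 3. The gene overlaps NR2C2 in the annotation, and whether counting used strand is not given in the sources used here.

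MRPS33, another small-subunit addition of mitochondria, was next, with 39.4, 44.5 and 57.6 FPKM in knockdown and 34.0 and 37.8 FPKM in control libraries. The groups did not overlap, with a log2 difference of 0.37 (SE 0.18; limma adjusted p = 0.479) that was 0.22 without knockdown replicate 3. MRPL22, which lines the exit tunnel, had 7.11, 10.0 and 17.3 FPKM in knockdown and 7.32 and 9.27 FPKM in control libraries. MRPL54, a large-subunit addition, had 35.4, 37.96 and 77.7 FPKM in knockdown and 30.4 and 47.6 FPKM in control libraries. In both, knockdown replicate 3 was the only library far above the others and the groups overlapped. Their log2 differences of 0.36 (SE 0.34) and 0.30 (SE 0.37) became 0.03 and -0.05 without it. MRPL24, a counterpart of a bacterial large-subunit protein, had 61.7, 55.0 and 78.6 FPKM in knockdown and 46.4 and 58.1 FPKM in control libraries, overlapping, with a log2 difference of 0.31 (SE 0.19) that was 0.16 without knockdown replicate 3, 0.15 without control replicate 1 and 0.47 without control replicate 2.

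At the other end stood MRPS26, a small-subunit addition of mitochondria (chr20:3045945-3048254, plus strand). It had 64.0, 45.2 and 40.9 FPKM in knockdown libraries and 62.2 and 62.6 FPKM in control libraries. Knockdown replicates 2 and 3 lay below the controls and replicate 1 above them, with a log2 difference of -0.34 (SE 0.20; limma adjusted p = 0.544). It was -0.53 without knockdown replicate 1 and -0.21 without knockdown replicate 3. MRPL34, the counterpart of a small bacterial large-subunit protein, had 39.3, 31.5 and 38.5 FPKM in knockdown and 42.7 and 46.7 FPKM in control libraries. All knockdown values lay below both controls, with a log2 difference of -0.30 (SE 0.15; limma adjusted p = 0.479) that was -0.20 without knockdown replicate 2. MRPL52 likewise did not overlap, with 44.8, 38.8 and 42.1 FPKM in knockdown, against 47.9 and 47.2 FPKM in controls, and a log2 difference of -0.18 (SE 0.13). MRPL55 had 52.1, 45.4 and 35.2 FPKM in knockdown and 55.2 and 49.0 FPKM in control libraries, and MRPL39 had 11.7, 11.1 and 14.6 FPKM against 13.9 and 14.2 FPKM. These last 2 overlapped between groups.

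The 3 genes of the MRPS18 family encode related proteins that occupy different places in the particle. MRPS18A, in spite of its symbol a protein of the large subunit, had 52.5, 42.3 and 45.4 FPKM in knockdown and 48.9 and 54.0 FPKM in control libraries. MRPS18C, a small-subunit protein, had 19.6, 18.5 and 31.6 FPKM in knockdown and 22.2 and 26.2 FPKM in control libraries. The groups overlapped in both, with log2 differences of -0.14 (SE 0.14) and -0.09 (SE 0.24). MRPS18B, also of the small subunit, was below the level limit, with 0.275, 0.888 and 0.480 FPKM in knockdown libraries, 0.245 FPKM in control replicate 1 and a listed value of 0 in control replicate 2. Its locus on chromosome 6 (chr6:30617709-30626395) lies in the major histocompatibility region, where most rows of the table were low: of 60 protein-coding genes within 1 Mb, 53 (88.3%) were under 1 FPKM, against 42.9% of all 19043 protein-coding genes. Around MRPS18A, on the same chromosome, it was 13 of 51 genes (25.5%). The other matching symbol below the limit was MRPS24, with 0.203, 0.171 and 0.0324 FPKM in knockdown and 0.380 and 0.262 FPKM in control libraries, while 8 of 28 genes around it (28.6%) were under 1 FPKM. MRPS24 overlaps the readthrough gene URGCP-MRPS24, which was listed at 0 in all 5 libraries, and URGCP stood at 19.7 FPKM. The level limit fell in an empty stretch, since the row nearest below it had 0.378 FPKM and the member nearest above it 8.77 FPKM. How reads of these loci were assigned was not tested, so the low values of MRPS18B and MRPS24 are those of the table and not measured absence.

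A single library stood out among the members. Knockdown replicate 3 had the highest value in 49 of 76 members (64.5%), against 30% of all tested genes. Knockdown replicates 1 and 2 were highest in 13 (17.1%) and 4 members (5.26%), against 12.1% and 23.3% of tested genes, and control replicates 1 and 2 in 7 (9.21%) and 3 members (3.95%), against 19.6% and 14.9%. Knockdown replicate 2 had the lowest value in 29 (38.2%), against 18.3% of tested genes. The members' median log2 deviation from their own 5-library mean was -0.04, -0.11 and 0.24 in knockdown replicates 1, 2 and 3 and -0.07 and 0.03 in the controls, while the same median over all tested genes was within 0.01 of 0 in every library. In 12 members knockdown replicate 3 exceeded 1.5 times the mean of the other libraries, a count not made over all tested genes. After MRPL22, at 2.06 times, and MRPL54, at 2.05 times, came MRPL33, MRPL51, MRPL1 and MRPL47, at 1.91, 1.80, 1.79 and 1.73 times. MRPL33, MRPL1 and MRPL47 are named after their values were seen. MRPL33 had 29.1, 33.9 and 64.0 FPKM in knockdown and 30.2 and 40.8 FPKM in control libraries, so the other 4 libraries overlapped. Some members ran the other way, MRPL55 at 0.699 and MRPS26 at 0.700 times the mean of the other libraries. Without knockdown replicate 3, the members' median log2 difference was -0.05, against -0.0037 for all tested genes. Above 0 were then 32 of 76 members, against 6014 of 12196 tested genes. The sign changed in 27 members, a number without an all-gene count beside it.

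In knockdown replicates 1 and 3 the deviations varied with the base composition of the transcripts. Across the 76 members, Spearman's correlation between deviation and GC content of the longest annotated transcript was 0.712 in knockdown replicate 1, 0.172 in replicate 2 and -0.666 in replicate 3, against 0.424 and -0.07 in control replicates 1 and 2. Over all tested genes the same values were 0.608, 0 and -0.548 in knockdown and 0.182 and 0.122 in control libraries. These are descriptions across genes that share their libraries and are not independent replicates. In the 25 members of lowest GC content (34.96% to 45.53%), the median deviation of knockdown replicate 3 was 0.43, against 0.23 in the 26 of middle and -0.05 in the 25 of highest GC content (52.92% to 71.95%). Knockdown replicate 1 ran the opposite way, at -0.18, -0.01 and 0.07. Each gene's deviations sum to 0 over the libraries, so a slope in 1 library by itself shifts the others the opposite way. MRPL54 departed from the pattern, with a GC content of 60.86% and the second largest ratio of knockdown replicate 3 to the other libraries.

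**Figure D3:**
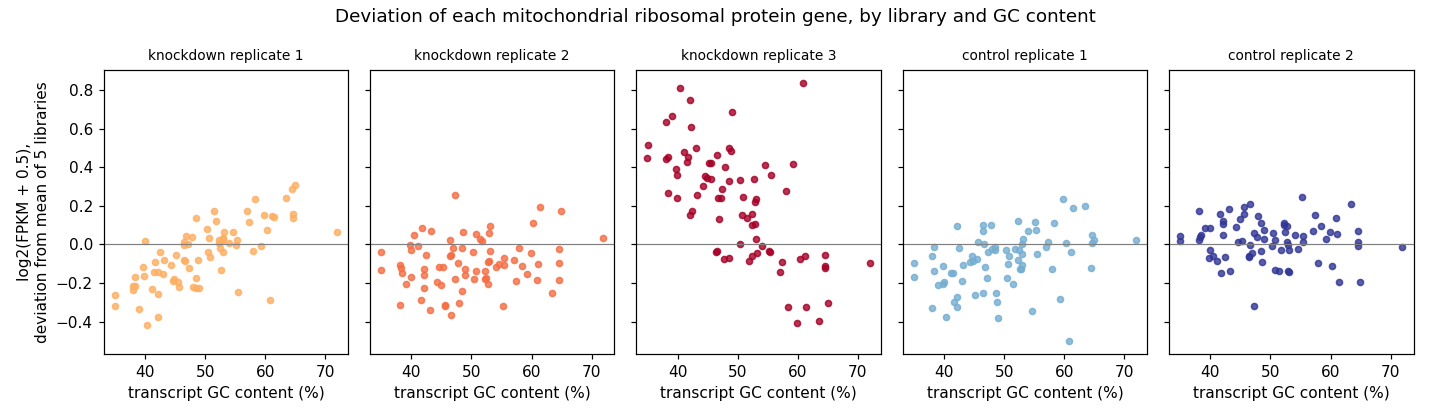
Log2 deviation of each of the 76 members from its mean over 5 libraries (vertical axis) against GC content in percent of its longest annotated transcript (horizontal axis), with 1 panel per library, knockdown libraries first. Knockdown replicate 1 slopes upward (Spearman 0.712) and knockdown replicate 3 downward (-0.666).

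When each library was corrected for GC content and transcript length over all genes, the members' median deviation in knockdown replicate 3 was 0.06. In knockdown replicates 1 and 2 it was 0.0012 and -0.10, and in control replicates 1 and 2 -0.0038 and 0.05. As deposited, knockdown replicate 2 had been at -0.11. Part of the relation to GC content remained among the members. Spearman's correlation of corrected deviation with GC content was 0.324, 0.159 and -0.268 in knockdown replicates 1, 2 and 3. It was 0.193 and -0.233 in control replicates 1 and 2. The median log2 difference was then -0.03, with 34 of 76 members above 0, so its sign depends on this correction. At an unadjusted p under 0.05 there were 6 members (7.89%), against 18.4% of all genes so treated. They were MRPS25 (0.42) and MRPS33 (0.33) above 0, and MRPL34 (-0.39), MRPL39 (-0.34), MRPL32 (-0.33) and MRPL52 (-0.28) below it, each a log2 difference after correction. MRPL32 is a large-subunit protein with a bacterial homolog, known as a substrate of the mitochondrial m-AAA protease.

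A second division of the libraries crossed the groups. By the steps between their low values, knockdown replicates 1 and 3 and control replicate 1 form one set (A) and knockdown replicate 2 and control replicate 2 another (B), and no label describes it. Within set A the members' median log2 difference was 0.16, with 58 of 76 above 0. Within set B it was -0.14, with 23 above 0. Over all 12196 tested genes the medians were -0.009 in set A and 0.0005 in set B, with 5930 and 6106 above 0. The signs were the same in 29 members (38.2%), against 55.7% of all tested genes. In 41 members the difference was above 0 in set A and below 0 in set B, and in 6 it was the reverse. In 17 both were above 0 and in 12 both below. This finer split was not counted over all tested genes. Spearman's correlation between the 2 differences was 0.009 across the 76 members and 0.184 across all tested genes, and the sets share no library. MRPS25 was above 0 in both, at 0.29 and 0.58, and MRPS26 below 0 in both, at -0.28 and -0.46. MRPL54 was at 0.78 in set A and -0.32 in set B. Each set holds 1 control, and the differences within the sets were not tested.

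**Figure D4:**
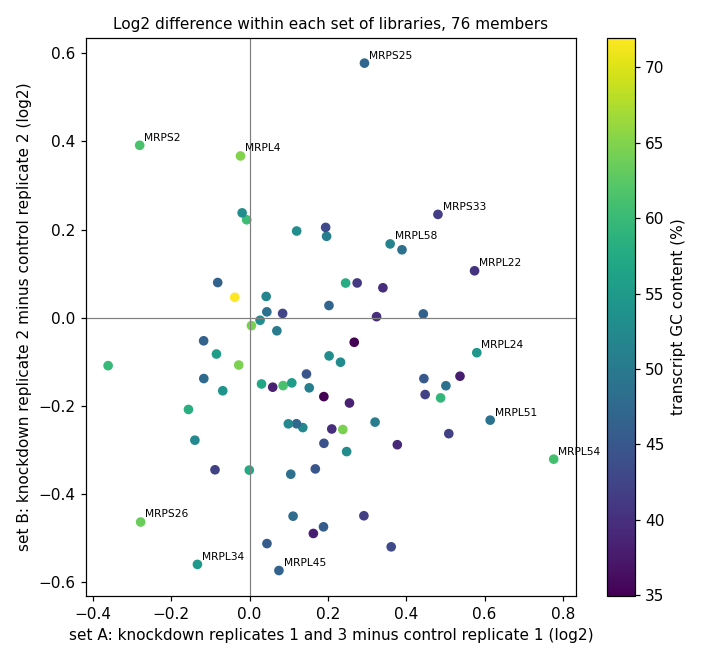
Log2 difference, knockdown minus control, of the 76 members within set A (2 knockdown libraries, 1 control; horizontal axis) and within set B (1 knockdown library, 1 control; vertical axis), coloured by transcript GC content in percent. In 41 members the value is above 0 in set A and below 0 in set B, and 29 have the same sign in both.

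The members were also described by their place in the particle, with no test of differences between classes. By structure, 24 members belong to the small subunit and 50 to the large one, with MRPS18A and MRPS30 in the large subunit despite their symbols. MRPL55 and MRPS36 were not classed. MRPS36 is known as a subunit of the 2-oxoglutarate dehydrogenase complex, so its symbol alone does not place it in the ribosome. The median log2 difference was 0.04 in the small subunit (16 of 24 above 0) and 0.04 in the large one (30 of 50). It was 0.04 in members with a bacterial homolog (29 of 43 above 0) and 0.02 in those without (17 of 31). By both divisions together, the medians were 0.07 in large-subunit members with a bacterial homolog (20 of 29 above 0), -0.0007 in large-subunit members without (10 of 21), 0.03 in small-subunit members with one (9 of 14) and 0.04 in small-subunit members without (7 of 10). The 2 members not classed had a median of -0.06. Without knockdown replicate 3 the medians of all 4 combined classes were below 0, between -0.0521 and -0.0259. None of the members of any class passed the adjusted threshold in limma, and the 1 member at an unadjusted p under 0.05, MRPS25 of the small subunit, compares with 11.7% of all tested genes and shows nothing about the subunits.

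A further 5 proteins of the particle carry other symbols. DAP3, a GTP-binding small-subunit protein first known from cell death, had 44.4, 46.2 and 60.9 FPKM in knockdown and 44.1 and 48.1 FPKM in control libraries. GADD45GIP1, which sits at the exit of the large subunit's tunnel, had 94.4, 67.2 and 60.3 FPKM in knockdown and 82.5 and 84.4 FPKM in control libraries. Both overlapped between groups, with log2 differences of 0.12 (SE 0.17) and -0.20 (SE 0.20). AURKAIP1 and CHCHD1, both of the small subunit, overlapped as well, at -0.19 (SE 0.17) and 0.08 (SE 0.20). PTCD3, a pentatricopeptide repeat protein of the small subunit, was the exception, with 10.9, 10.6 and 11.1 FPKM in knockdown and 11.2 and 11.3 FPKM in control libraries. Its values were all lower in knockdown libraries but by little, with a log2 difference of -0.04 (SE 0.12; limma adjusted p = 0.898).

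Genes that act around the mitochondrial ribosome gave no calls either. None of the 26 genes for its assembly and rRNA modification passed in limma, adjusted or at an unadjusted p under 0.05 (against 11.7% of all tested genes), with a median log2 difference of -0.02 and 12 of them above 0. Among them, the largest differences were those of YBEY, an endoribonuclease, at 0.40 (SE 0.19), and MPV17L2, a factor of large-subunit assembly, at -0.37 (SE 0.17). The 14 translation factors and regulators had a median of 0.09, with 9 above 0, and the 16 mitochondrial aminoacyl-tRNA synthetases a median of -0.03, with 5 above 0. The 10 genes for replication and transcription of mitochondrial DNA had a median of 0.02, with 6 above 0, and none of these 3 groups held a gene past the adjusted or unadjusted threshold, the second again against 11.7% of tested genes. Except for the synthetases, the signs of these medians depend on 1 library. Without knockdown replicate 3 the medians were 0.03 for assembly (16 of 26 above 0) and -0.05 for translation factors (6 of 14). They were -0.05 for replication and transcription (3 of 10) and -0.04 for the synthetases (7 of 16), whose median stayed below 0. After the correction for GC content and length the translation factors had a median of -0.0064. Of the factors whose letters were searched in the promoters, GABPA had 3.949, 4.475 and 5.501 FPKM in knockdown and 4.51 and 4.64 FPKM in control libraries. YY1 had 35.9, 33.1 and 38.3 FPKM against 37.7 and 39.1 FPKM, and NRF1 had 6.06, 6.57 and 5.90 FPKM against 6.64 and 5.78 FPKM. All 3 overlapped between groups, with log2 differences of 0.01 (SE 0.16), -0.10 (SE 0.13) and -0.01 (SE 0.13).

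Nuclear genes for oxidative phosphorylation and for the cytosolic counterpart of the particle give a comparison. The subunits encoded in mitochondrial DNA, the particle's own products, were not in these lists. The 78 nuclear genes for subunits of oxidative phosphorylation had a median log2 difference of 0.17. The 82 genes of cytosolic ribosomal proteins had one of 0.23, and the members one of 0.04. Within set A these medians were 0.30, 0.41 and 0.16, and within set B -0.03, -0.01 and -0.14. Without knockdown replicate 3 they were 0.06, 0.07 and -0.05, and corrected for GC content and length 0.07, 0.15 and -0.03. The differences between these lists were not tested. Knockdown replicate 3 was the highest of the 5 libraries in all 3 lists, with median deviations of 0.33, 0.41 and 0.24, which became 0.14, 0.28 and 0.06 after the correction for GC content and length, which covered 64 of the 78 oxidative phosphorylation genes.

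**Figure D5:**
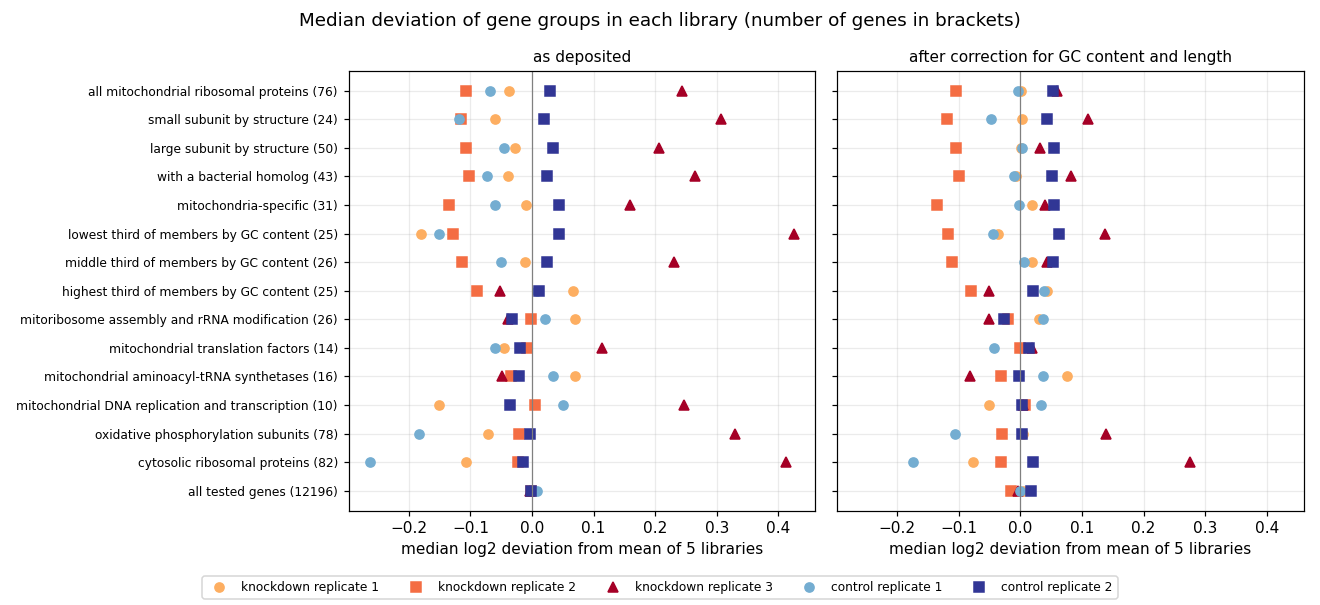
Median log2 deviation of each gene group from its 5-library mean, as deposited (left) and corrected for transcript GC content and length (right), with 1 symbol per library and the number of genes in brackets. Knockdown replicate 3 is at 0.24 for the 76 members as deposited and at 0.06 after correction. Knockdown replicate 2 is at -0.11 as deposited and at -0.10 after correction.

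The members were spread over 21 chromosomes. In the annotation 17 of the 76 (22.4%) had, within 1000 bases upstream, the start of a protein-coding gene running in the opposite direction. The share was 10.3% among 10874 tested protein-coding genes. Opposite starts lying downstream of a gene's own start were not counted. Partners included genes of oxidative phosphorylation: MRPL36 starts 34 bases from NDUFS6 and MRPL47 starts 36 bases from NDUFB5, both encoding subunits of respiratory complex I. These starts are those of GENCODE and can differ from the RefSeq starts of the promoter windows. For MRPL36 the GENCODE start is at chr5:1801366. Its YY1 letters, at chr5:1799855-1799885 with their flanks, were placed by a different, RefSeq start. NDUFB5 had 83.5, 107.6 and 183.0 FPKM in knockdown and 64.0 and 94.5 FPKM in control libraries, and MRPL47 had 49.98, 53.9 and 90.4 FPKM against 46.2 and 59.2 FPKM. Knockdown replicate 3 was the highest library of both, and their groups overlapped, with log2 differences of 0.60 (SE 0.34) and 0.25 (SE 0.27). MRPL36 had 62.4, 63.5 and 65.6 FPKM in knockdown and 58.8 and 55.3 FPKM in control libraries, without overlap, and a log2 difference of 0.16 (SE 0.12). NDUFS6 had 151.3, 155.9 and 215.1 FPKM against 137.0 and 157.6 FPKM, with overlap, and a log2 difference of 0.22 (SE 0.19). Of the 76 members, 47 overlap another annotated gene and 33 have named pseudogenes, 73 of them in all, so part of their reads could have been shared with other loci in a way these values do not show.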

How the data were processed

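The data are total RNA sequencing of HaCaT cells, 3 libraries labelled AHNAK knockdown and 2 labelled control. The authors deposited 1 table of FPKM values. HISAT2 2.0.1 and StringTie 2.0.6 were used, per the submitters' processing notes, which also name the builds GRCh38 and mm9 without a role; the annotation and any strand setting are not given in these sources. FPKM carry no read totals, so the depth is unknown; library sums ran from 374214.8 to 420540.9 FPKM.

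The 12196 genes averaging 1 FPKM or more were tested as log2(FPKM + 0.5) in limma 3.58.1 (R 4.3.3, lmFit and eBayes with an intensity trend, no covariate), two-sided, with Benjamini-Hochberg adjustment and a threshold of 0.05. On simulated data 0.0267% of unchanged genes were called. Exact permutation of 2 against 3 libraries has 10 splits and cannot go below p = 0.1, so it was not used. Coordinates, overlaps, GC content and transcript lengths are from GENCODE 29 (GRCh38), promoter windows from RefSeq (GRCh38.p14). The correction was a loess fit (span 0.3) over 11768 genes (96.49%). Sets A and B come from ratios of values under 0.3 FPKM, and how the sets' scales relate is unknown.

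Members and lists were chosen with earlier results of these data known. Named were AHNAK, the 8 highest and 4 lowest members, those with unadjusted p under 0.05, the 6 largest and 6 most negative differences, the MRPS18 family, ribosome genes under other symbols, 9 members of known role and the rows around 1 FPKM. MRPL32, MRPL33, MRPL1, MRPL47, MRPL46, MRPL36, all other members listed by name, and the genes of other groups were named after their values were seen. Alternatives covered the pseudocount, filter, scaling, weights, trend, replicate block, sets, correction and each library left out.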

Additional observations from a re-analysis of the deposited data

How the results depend on the processing

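Under 17 alternatives the members' median log2 difference moved by less than the spread between library medians (SD 0.157), but it was below 0 in 7 of them and ranged from -0.08 (GC and length correction without knockdown replicate 3, chosen after seeing the data) to 0.10 (without knockdown replicate 2). In the first of these 28 members were above 0. Leaving out 1 library gave 32 to 58 members above 0, 0 to 6 members at an unadjusted p under 0.05 (against 4.62% to 17.2% of all genes, and 14.5% for the 6 without knockdown replicate 3, or 7.89% of members), and 0 to 9 genes past the threshold, none of them members, in limma. The count of genes past the threshold was 1 with a pseudocount of 1, 1 without the trend and 1428 with array weights. With these weights 2 members passed and AHNAK stood at -1.55 (adjusted p = 0.0340; 0.212 to 0.736 over the fits that leave out 1 library). Members at an unadjusted p under 0.05 numbered 2 without the level filter (9.71% of all genes), 2 with equal sums (10.9%), 9 with weights (35.1%), 0 with the set term (6.79%), 6 with the GC and length correction (18.4%) and 8 with that correction without knockdown replicate 3 (16.2%). With equal sums the median of all genes shifted to -0.0435. Causes were not tested.

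With the replicate number as a block, 0 members had an unadjusted p under 0.05 (8.01% of all genes) and the median was -0.05. Replicate 3 has no control partner, so this fit gives the estimate without it. The labels do not say that numbers pair samples, and same-numbered deviations correlated at -0.064 and -0.578. The block changed the sign of MRPL51 (-0.0371), MRPL41 (0.0446), MRPL12 (0.0021), MRPL23 (0.0162), MRPL3 (-0.0065), MRPL54 (-0.0535), DAP3 (-0.0245) and CHCHD1 (-0.0945).

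Of 561 fits of 33 named genes, 52 reversed a small difference that passed no threshold. Equal sums reversed MRPS34 (-0.0125), MRPS11 (-0.0187) and MRPL10 (-0.009). Weights reversed MRPL41 (0.0247), MRPS34 (-0.0988), MRPS11 (-0.0053) and CHCHD1 (-0.0805). The GC and length correction reversed MRPL41 (0.0992), MRPL3 (-0.0609), CHCHD1 (-0.0612) and MRPL10 (-0.0046), and without knockdown replicate 3 MRPL51 (-0.0626), MRPL41 (0.0455), MRPL3 (-0.0031), MRPL54 (-0.1292), DAP3 (-0.0349) and CHCHD1 (-0.1045). Leaving out 1 library gave ranges across 0 for MRPS34 (-0.0926 to 0.142), MRPL19 (-0.1578 to 0.0588), MRPS18C (-0.3329 to 0.0447), MRPL10 (-0.0078 to 0.0981), MRPL44 (-0.2187 to 0.0705), MRPS22 (-0.2505 to 0.0352), MRPL23 (-0.0851 to 0.0377), MRPL51 (-0.0371 to 0.485), MRPL41 (-0.0364 to 0.0446), MRPL12 (-0.1376 to 0.0021), MRPL3 (-0.0065 to 0.1071), MRPL54 (-0.0535 to 0.6224), DAP3 (-0.0245 to 0.2017) and CHCHD1 (-0.0945 to 0.2175). Depth is unknown.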

Other observations

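Rows related to the members by name but outside their rule were low. The antisense RNA MRPL23-AS1, which overlaps MRPL23, had 5.91, 4.38 and 5.17 FPKM in knockdown and 5.09 and 7.16 FPKM in control libraries, and the groups overlapped, with a log2 difference of -0.22 (SE 0.19; limma adjusted p = 0.665). Since the strand setting is unknown, its reads and those of MRPL23 may not be separate. The pseudogene MRPL45P2 had 3.37, 3.33 and 3.47 FPKM in knockdown and 2.86 and 3.20 FPKM in control libraries, each knockdown value above both controls, with a log2 difference of 0.14 (SE 0.13; limma adjusted p = 0.685). The pseudogene MRPS31P5 had 2.28, 2.08 and 2.01 FPKM in knockdown and 2.60 and 2.46 FPKM in control libraries, each knockdown value below both controls, with a log2 difference of -0.21 (SE 0.14; limma adjusted p = 0.585). VARS2, the mitochondrial valyl-tRNA synthetase, averaged 0.330 FPKM. Its gene lies within 1 Mb of MRPS18B, where 53 of 60 protein-coding genes (88.3%) were under 1 FPKM. How its reads were assigned was not tested, so this value is that of the table and not measured absence. PPARGC1A, a coactivator of nuclear genes for mitochondria, averaged 0.0515 FPKM. Both genes were below the level tested.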
